A study of Mus musculus with 16 samples.

Results

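The cytosolic ribosome, the particle that makes proteins from mRNA, has a small subunit that reads the mRNA and a large subunit that joins amino acids, and each holds its own set of ribosomal proteins. The names of large-subunit genes begin with Rpl and those of small-subunit genes with Rps. Many ribosomal protein mRNAs begin at a C followed by a run of pyrimidines, the terminal oligopyrimidine (TOP) tract, through which the kinase mTOR and the RNA-binding protein Larp1 control their translation. In sensory neurons ribosomes lie in the cell body and also in the axon, where local protein synthesis after nerve injury has been described.

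The 84 genes described here are the protein-coding mouse genes whose symbol begins with Rpl or Rps and a digit, with Rplp0 to Rplp2 and Rpsa, without the Rps6k kinases, and with at least 10 counts in at least 4 of 16 libraries. They are 84 of 48795 gene IDs in the count table. The symbols matched 92 genes, of which 86 were protein-coding and 6 were annotated as pseudogenes. Rpl39l, with 30 counts over all libraries, and Rpl10l, with 1 count, fell under the minimum, and Rpl3l, with 151 counts and at least 10 in 6 libraries, was just inside it. Of the 84 genes, 46 encode standard large-subunit proteins and 31 standard small-subunit proteins. Another 6 encode paralogs (Rpl3l, Rpl7l1, Rpl22l1, Rpl36al, Rps27l and Rps27rt), and Rps19bp1 is named for a protein that binds the ribosomal protein Rps19 and is not one itself. All 84 passed the low-count filter of the test.

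RNA was sequenced from dissociated dorsal root ganglia (DRG) of mice at lumbar levels L4 to L6, where sensory neurons of the sciatic nerve have their cell bodies. The 4 groups of 4 libraries are injured ganglia 24 h after crush of a sciatic nerve, naive ganglia at 24 h, injured ganglia at 72 h and naive ganglia at 72 h. Naive ganglia came from the same crushed animals, per the series text, so they are not ganglia of unoperated mice. Strain, sex and age are not given in the sources used here, and the labels do not tie a library to an animal. Gene counts per library ranged from 32758978 to 56484541, of which the 84 genes held 177265 to 282281. The defining markers of neurons were present in all groups, with 16 of 16 pan-neuronal markers tested. Markers of macrophages (14), neutrophils (11), satellite glia (7), Schwann cells (8), endothelium (8), mural cells (8), fibroblasts (8) and red blood cells (7) were all detected as well, and 4 of 10 lymphocyte markers passed the filter. In such bulk RNA, more cells of a type and more RNA per cell cannot be told apart.

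TOP-like starts were looked for in RefSeq sequence (GRCm38.p6) as a C at the annotated transcription start followed by at least 4 pyrimidines (C or T) on the strand of the gene. Such a tract was found at 14 of the 76 annotated starts of the 64 genes matched by symbol (18.4%), against 823 of 32851 starts of all genes (2.51%). An annotated start can miss the base at which transcription begins, so a start without the tract here says nothing about how that mRNA begins. The sequences below show 30 bases around the start for 5 genes that rose at 72 h and for Rps27 and its copy Rps27rt, which did not pass the test. Capitals mark the tract, whose first C is the annotated start.
Rpl35 (chr2:39005112-39005141, minus strand): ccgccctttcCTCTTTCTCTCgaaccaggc
Rpl15 (chr14:18270967-18270996, minus strand): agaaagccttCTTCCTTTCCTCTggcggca
Rpl14 (chr9:120571507-120571536, plus strand): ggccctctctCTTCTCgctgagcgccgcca
Rps6 (chr4:86857348-86857377, minus strand): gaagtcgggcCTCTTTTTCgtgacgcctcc
Rps15a (chr7:118116128-118116157, minus strand): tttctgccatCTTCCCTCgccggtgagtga
Rps27 (chr3:90213629-90213658, minus strand): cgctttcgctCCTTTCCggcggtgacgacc
Rps27rt (chr9:114982720-114982749, minus strand): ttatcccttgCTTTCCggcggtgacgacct
These 5 were the genes called higher in injured ganglia at 72 h among the 14 with a tract, beside 34 of all 84 genes (40.5%). Of the genes with a tract that were not called, only Rps27 and Rps27rt are printed. Whether the tract went with the rise was not tested. Rpl15 had the longest of the tracts printed, 13 bases, and Rpl14 a tract of 6 bases. Rps27rt, a retrocopy of Rps27 on another chromosome, shares a run of 38 bases with Rps27 within the 60 bases compared around the start.

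At 72 h after crush, 34 of the 84 genes were higher in injured than in naive ganglia and none was lower. The rises were small: log2 fold changes of the 34 ran from 0.17 to 0.92, with a median of 0.31. They were 16 of 46 large-subunit genes, 16 of 31 small-subunit genes, the paralog Rps27l and Rps19bp1, so that 33 of 83 genes of ribosomal proteins rose. At 24 h 6 of the 84 genes rose and none fell. At an unadjusted p under 0.05, 1 gene was lower at 72 h and none at 24 h, and DESeq2 called none lower at either time. The share of the 84 called higher at 72 h, 40.5%, stood beside 14.4% of all 19151 genes tested, and 13.5% of all genes were called lower. At 24 h the share was 7.14%, beside 10.7% of all genes called higher and 8.31% called lower. The median log2 fold change over the 84 genes was 0.21 at 72 h and 0.07 at 24 h, against -0.01 over all tested genes at both times. Calls are from edgeR's quasi-likelihood test with Benjamini-Hochberg adjustment over all tested genes, at an adjusted p under 0.05.

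**Figure D1:**
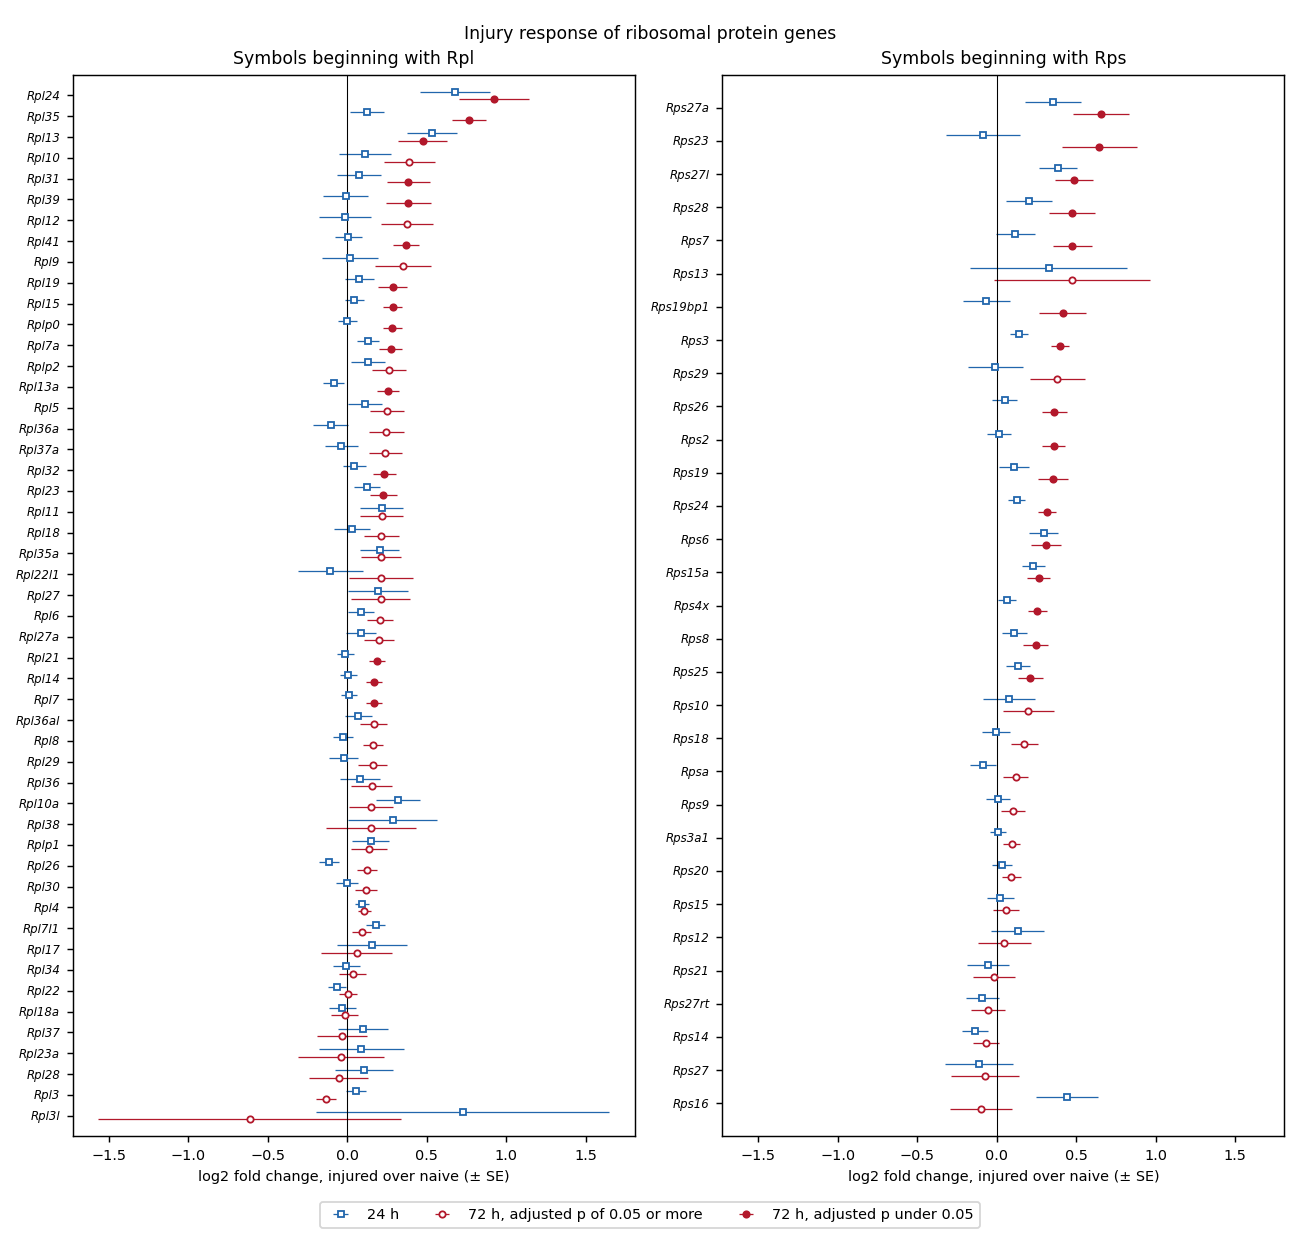
Log2 fold change of injured over naive ganglia for 81 of the 84 genes, with its standard error, at 24 h (open squares) and 72 h (circles, filled where the edgeR adjusted p was under 0.05), ordered by the 72 h value. Most 72 h values drawn lie right of 0, 70 of 81, with Rpl24 and Rpl35 farthest out among Rpl genes and Rps27a and Rps23 among Rps genes.

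The 84 genes together took a larger share of each injured library at 72 h. Their share of gene counts was 0.551%, 0.536%, 0.558% and 0.533% in the injured libraries at 72 h, against 0.497%, 0.466%, 0.474% and 0.503% in the naive libraries. At 72 h the groups did not overlap, and the means were 0.545 ± 0.012% in injured and 0.485 ± 0.018% in naive ganglia (SD, n = 4 each). At 24 h the shares were 0.501%, 0.493%, 0.541% and 0.548% in injured libraries and 0.528%, 0.500%, 0.517% and 0.538% in naive libraries. These overlapped, with means of 0.521 ± 0.028% and 0.521 ± 0.016% (SD, n = 4 each). The injured mean at 72 h was above both 24 h means, and the naive mean at 72 h was below them. No test was made of these summed shares. Summed CPM (the counts scaled to library size after TMM normalization) of the small-subunit genes was 0.755 ± 0.013 of that of the large-subunit genes in injured ganglia at 72 h and 0.733 ± 0.019 in naive ganglia (SD, n = 4 each), with overlapping ranges of 0.743 to 0.773 and 0.710 to 0.749.

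**Figure D2:**
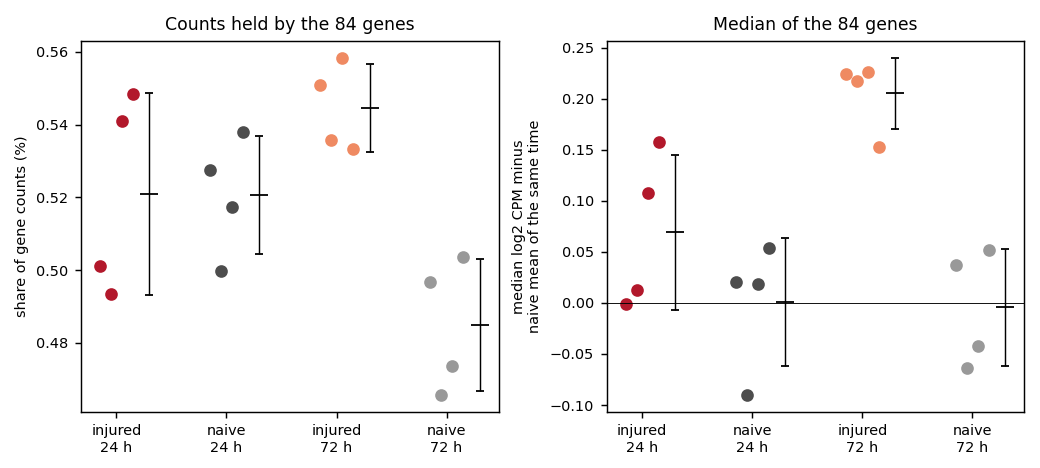
Left, share of all gene counts held by the 84 genes, in percent, in each library; right, the median over the 84 genes of log2 CPM minus the naive mean of the same time. Points are libraries and bars are the mean and SD of 4; on the right the injured libraries at 72 h lie between 0.15 and 0.23, above all naive libraries.

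Other measures moved with the groups at 72 h. The share of counts from mitochondrially encoded genes was 1.55% to 1.97% in the injured libraries and 2.02% to 2.51% in the naive ones, without overlap. Of all tested genes, 14.4% were called higher and 13.5% lower at 72 h, beside the marker counts that follow. Of 14 macrophage markers 7 were higher in injured ganglia, with a summed level of 91.4 to 146 CPM in injured and 54.9 to 146 CPM in naive libraries. Of 11 neutrophil markers 8 were lower, with a summed 46.9 to 166 CPM in injured and 119 to 459 CPM in naive libraries, and 1 of 7 markers of red blood cells was lower, at 28.7 to 110 CPM against 74.5 to 223 CPM. Of 16 pan-neuronal markers 4 were higher and 5 lower, and their summed level was 21874 to 23363 CPM in injured and 19504 to 21501 CPM in naive libraries, without overlap. Mean summed levels were 22482 CPM in injured and 20424 CPM in naive ganglia at 72 h, and 22371 and 22480 CPM at 24 h. The naive group at 72 h thus had the lowest mean. Its range overlapped those of the 24 h libraries, 20077.7 to 23660.9 CPM in injured and 21260.5 to 24761.3 CPM in naive ganglia. Among markers of satellite glia 1 of 7 was higher and 1 lower, of Schwann cells 1 of 8 higher, of fibroblasts 1 of 8 higher, of endothelium 1 of 8 lower and of mural cells 2 of 8 lower. No marker of these lists was at 0 counts over all 16 libraries together. Their part in the rise of the ribosomal protein genes was not tested.

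Among the 31 small-subunit genes, the 16 that rose at 72 h were led by Rps3, the one with the smallest p. Rps3, a protein at the entry of the mRNA channel that also has roles in DNA repair (chromosome 7, 99477896 to 99483738, GRCm38), had 288, 293, 299 and 265 CPM in the injured libraries at 72 h, against 226, 204, 213 and 225 CPM in the naive libraries. Every injured library was above every naive one, and its log2 fold change was 0.40 ± 0.06 (SE, edgeR adjusted p = 7.93e-06). At 24 h Rps3 had 252, 222, 261 and 262 CPM in injured and 230, 212, 235 and 227 CPM in naive libraries, which overlap, and it did not pass the test (log2 fold change 0.14, edgeR adjusted p = 0.0935). Almost all of its sequence is its own: 96.8% of its 50-base stretches occur in no other annotated gene's transcripts.

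Rps24, a small-subunit protein needed to process the precursor of 18S rRNA, had 190, 206, 200 and 201 CPM in injured and 157, 160, 154 and 170 CPM in naive libraries at 72 h. All injured libraries lay higher, by a log2 fold change of 0.32 ± 0.05 (SE, edgeR adjusted p = 7.61e-05), and 95.1% of its 50-base stretches were unique. Rps2, another protein of the mRNA entry site, had 103, 102, 108 and 118 CPM in injured and 86.3, 84.2, 73.9 and 92.1 CPM in naive libraries at 72 h, again without overlap (log2 fold change 0.36 ± 0.07, SE, edgeR adjusted p = 0.000627). Of the 5 genes listed for the mRNA channel, 4 rose at 72 h (Rps2, Rps3, Rps26 and Rps28) and none at 24 h. The 72 h share was 80%, beside 40.5% of all 84 genes. The fifth was Rpsa, the ribosomal protein also known as a laminin receptor precursor, which did not pass. The list is short and was chosen with earlier results of these data known. Whether place in the ribosome went with the rise was not tested.

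Rps28, which lies near the mRNA exit, had 12.5, 13.0, 13.9 and 13.8 CPM in injured and 10.4, 7.83, 8.55 and 11.5 CPM in naive libraries at 72 h. These groups did not overlap either (log2 fold change 0.48 ± 0.14, SE, edgeR adjusted p = 0.0148). Rps7, which takes part in 18S rRNA maturation, had 9.42, 9.17, 8.30 and 8.50 CPM in injured and 7.36, 5.46, 6.10 and 6.54 CPM in naive libraries, a log2 fold change of 0.47 ± 0.12 (SE, edgeR adjusted p = 0.00476). Rps27a, which is made as a fusion with ubiquitin, had 4.90, 5.66, 5.57 and 5.03 CPM in injured and 3.89, 2.75, 3.89 and 2.92 CPM in naive libraries, a log2 fold change of 0.66 ± 0.18 (SE, edgeR adjusted p = 0.00647). In each of the 3 genes the lowest injured library at 72 h was above the highest naive library.

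Rps6, the small-subunit protein that is phosphorylated by the S6 kinases downstream of mTOR and whose start is printed above, passed the test at both times, with a 24 h call that was lost when counts of its pseudogenes were added. It had 25.6, 20.3, 27.0 and 21.6 CPM in injured and 20.4, 18.6, 18.3 and 19.6 CPM in naive libraries at 24 h. One injured library lay inside the naive range, and the log2 fold change was 0.29 ± 0.09 (SE, edgeR adjusted p = 0.029). At 72 h it had 23.8, 26.3, 24.8 and 25.3 CPM in injured and 18.0, 19.3, 22.4 and 21.1 CPM in naive libraries, now without overlap (log2 fold change 0.31 ± 0.09, SE, edgeR adjusted p = 0.0141). The pseudogenes of Rps6 held 128582 counts against 15247 for the gene, and with their counts added to it, an alternative chosen after seeing the data, the log2 fold change was 0.10 at 24 h (edgeR adjusted p = 0.13) and 0.19 at 72 h (edgeR adjusted p = 0.00267). The 24 h call held in 4 of the 8 fits that leave out 1 library of that time, and was lost without injured replicates 1 or 3 or naive replicates 2 or 3. Rps15a also rose at both times, by 0.23 ± 0.07 at 24 h (SE, edgeR adjusted p = 0.0282) and by 0.26 ± 0.07 at 72 h (edgeR adjusted p = 0.00778). Its 72 h libraries held 60.3, 57.1, 58.1 and 58.2 CPM when injured and 45.1, 48.0, 51.1 and 50.4 CPM when naive.

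Among large-subunit genes Rpl35 had the smallest p at 72 h. Its protein sits beside the exit of the tunnel through which the new peptide leaves the ribosome. The injured libraries at 72 h had 33.8, 29.1, 36.9 and 31.7 CPM of Rpl35, against 20.4, 18.5, 18.2 and 20.04 CPM in naive libraries. The lowest injured library was well above the highest naive one, and the log2 fold change was 0.77 ± 0.11 (SE, edgeR adjusted p = 4.84e-06). At 24 h it had 20.9, 22.2, 26.5 and 25.9 CPM in injured and 22.0, 18.2, 21.0 and 26.6 CPM in naive libraries, which overlap (log2 fold change 0.12, edgeR adjusted p = 0.482). Only 15.95% of its 50-base stretches are unique, and 66.2% of its exon bases (chromosome 2, 39001580 to 39005624, GRCm38) are covered by exons of other genes, so its counts depend on how shared reads were assigned. The other genes listed around the tunnel exit that rose at 72 h were Rpl19, Rpl31 and Rpl39, making 4 of 9 (44.4%, beside 40.5% of all 84 genes). None of the list rose at 24 h. Rpl31 did not pass with the replicate number as a block (0.37, edgeR adjusted p = 0.0634), and Rpl19 did not pass with the counts of its pseudogenes added (0.04, edgeR adjusted p = 0.78). Rpl26, of the same list, had a log2 fold change of 0.13 and did not pass (edgeR adjusted p = 0.153).

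**Figure D3:**
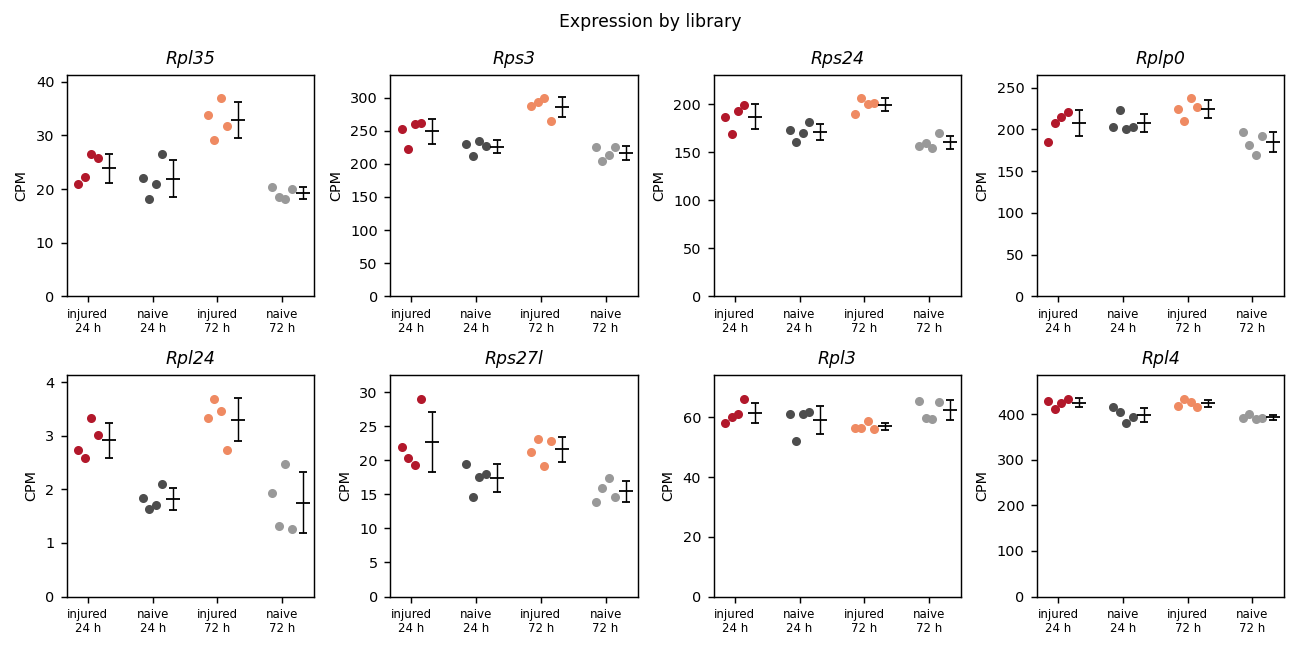
CPM in each of the 16 libraries for 8 of the genes, by group, with the mean and SD of 4 libraries beside the points. For Rpl35, Rps3, Rps24, Rplp0, Rpl24 and Rps27l all injured libraries at 72 h lie above the naive ones, whereas for Rpl3 all lie below, at 56.0 to 58.7 CPM against 59.5 to 65.6 CPM; Rpl4 had the highest level per kb.

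The P stalk, the lateral arm of the large subunit that recruits elongation factors, is built from Rplp0, Rplp1 and Rplp2. Its base protein Rplp0 had 224, 211, 237 and 227 CPM in injured and 196, 181, 169 and 192 CPM in naive libraries at 72 h. The groups did not overlap, and the log2 fold change was 0.28 ± 0.06 (SE, edgeR adjusted p = 0.000808). At 24 h Rplp0 averaged 207 CPM in both groups, ± 15.7 in injured and ± 10.6 in naive ganglia (SD, n = 4 each). Rplp1 and Rplp2 did not pass at 72 h, with log2 fold changes of 0.14 and 0.26 (edgeR adjusted p = 0.434 and 0.0698). Rpl5 and Rpl11, which with 5S rRNA form a particle that can bind the p53 regulator Mdm2, did not pass at either time. Their 72 h log2 fold changes were 0.25 and 0.22 (edgeR adjusted p = 0.0878 and 0.265), and with the replicate number as a block Rpl5 passed (edgeR adjusted p = 0.0167).

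Rpl24, a large-subunit protein at the face that meets the small subunit, had the largest fold change among the genes called at each time, but few counts. It had 3.32, 3.69, 3.45 and 2.74 CPM in injured and 1.93, 1.32, 2.47 and 1.26 CPM in naive libraries at 72 h, a log2 fold change of 0.92 ± 0.22 (SE, edgeR adjusted p = 0.00242). At 24 h it had 2.74, 2.58, 3.33 and 3.01 CPM in injured and 1.84, 1.62, 1.71 and 2.10 CPM in naive libraries, a log2 fold change of 0.68 ± 0.22 (SE, edgeR adjusted p = 0.0325). All injured libraries lay above the naive ones at both times. In fits that leave out 1 library of the time, the 24 h call held in 3 of 8 and the 72 h call in all 8. Of the gene's 50-base stretches 48.2% are unique, and 47.0% of its exon bases are covered by exons of another gene. Rpl13, a large-subunit protein, rose at both times as well, by 0.53 ± 0.16 at 24 h (SE, edgeR adjusted p = 0.0184) and 0.47 ± 0.15 at 72 h (edgeR adjusted p = 0.024). Its libraries held 6.54, 5.89, 5.54 and 5.66 CPM when injured and 4.15, 3.92, 4.48 and 4.45 CPM when naive at 72 h.

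Rpl3, which shapes the peptidyl transferase centre, had the opposite order of libraries. It had 56.6, 56.6, 58.7 and 56.0 CPM in injured and 65.6, 59.96, 59.5 and 65.2 CPM in naive libraries at 72 h. Every injured library was below every naive one, the single gene of the 84 with this order (1.19%, beside 15% of all genes), but the log2 fold change of -0.14 ± 0.06 did not pass (SE, edgeR adjusted p = 0.13). By the opposite order, 34 of the 84 genes had every injured library above every naive one at 72 h (40.5%, beside 16.3% of all genes), and 29 of these were among the 34 called. At 24 h this held for 4 genes, beside 10% of all genes: Rpl7l1, Rpl10a, Rpl13 and Rpl24. None was below throughout at 24 h, beside 8.48% of all genes.

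Paralogs of ribosomal proteins are second genes for a protein, often with a restricted pattern of expression. Rps27l, a paralog of Rps27 and a target of p53, rose at both times, and the other 5 paralogs did not pass at 72 h. It had 21.3, 23.2, 19.1 and 22.9 CPM in injured and 13.9, 15.9, 17.4 and 14.7 CPM in naive libraries at 72 h, without overlap (log2 fold change 0.49 ± 0.12, SE, edgeR adjusted p = 0.00291). At 24 h it had 22.0, 20.4, 19.3 and 29.1 CPM in injured and 19.4, 14.6, 17.5 and 18.0 CPM in naive libraries, where 1 injured library lay just below the highest naive one (log2 fold change 0.39 ± 0.12, SE, edgeR adjusted p = 0.0229). The 24 h value was 0.24 without injured 24 h replicate 4 (edgeR adjusted p = 0.139) and 0.31 without naive 24 h replicate 2 (edgeR adjusted p = 0.0914), and the call held without any 1 of the other 6 libraries of that time. Its partner Rps27 averaged 2.51 ± 0.32 CPM in injured and 2.63 ± 0.36 CPM in naive ganglia at 72 h (SD, n = 4 each) and did not pass (edgeR adjusted p = 0.856). Per kb of exon, naive ganglia held 20.1 CPM of Rps27l, 2.35 of Rps27 and 50.7 of the copy Rps27rt. Only 8.92% of the 50-base stretches of Rps27rt are unique, so these levels can hold reads of one gene counted for the other.

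Rpl7l1, which is also a factor in the maturation of the large subunit, passed the test at 24 h and not at 72 h. It had 42.5, 41.3, 44.3 and 45.1 CPM in injured and 37.5, 38.4, 39.9 and 37.2 CPM in naive libraries at 24 h, without overlap (log2 fold change 0.18 ± 0.06, SE, edgeR adjusted p = 0.0411). This call held in 2 of the 8 fits that leave out 1 library of that time. At 72 h the log2 fold change of Rpl7l1 was 0.09 (edgeR adjusted p = 0.31). The difference between these responses was not past the threshold (edgeR adjusted p = 0.671). Rpl7 itself, by contrast, averaged 217 ± 5.96 CPM in injured and 193 ± 8.47 CPM in naive ganglia at 72 h (SD, n = 4 each), a log2 fold change of 0.17 ± 0.05 (SE, edgeR adjusted p = 0.016). Rpl22l1 and its partner Rpl22, which have opposing roles in blood cell development, did not pass at either time, with 72 h log2 fold changes of 0.21 ± 0.20 and 0.01 ± 0.06 (SE). Rpl36al and Rpl36a did not pass, with 72 h values of 0.17 ± 0.09 and 0.24 ± 0.11 (SE). Rpl3l, the paralog known from skeletal and heart muscle, was barely detected, between 0 and 0.534 CPM in all libraries.

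Rps19bp1, which is counted by its symbol although it is no ribosomal protein, had 8.93, 10.6, 8.64 and 6.80 CPM in injured and 6.41, 6.10, 5.70 and 7.94 CPM in naive libraries at 72 h. One injured library lay inside the naive range, and the log2 fold change was 0.41 ± 0.15 (SE, edgeR adjusted p = 0.0394). Mutations in 19 of the genes cause Diamond-Blackfan anaemia in humans, a failure of red blood cell formation. Of these, 10 rose at 72 h (among them Rps7, Rps15a, Rps19, Rps24, Rps26, Rps28, Rpl15, Rpl31 and Rpl35) and only Rps15a at 24 h. The shares were 52.6% at 72 h, beside 40.5% of all 84 genes, and 5.26% at 24 h, beside 7.14%. The 3 ribosomal proteins listed whose genes have other kinds of symbol gave 1 call at 72 h, and their estimates were all above 0 at that time. Rack1, a signalling scaffold on the small subunit, rose by 0.19 ± 0.05 at 72 h (SE, edgeR adjusted p = 0.00908). Fau, which is made as a fusion with a ubiquitin-like protein, did not pass at either time (72 h log2 fold change 0.16 ± 0.16, SE, edgeR adjusted p = 0.524).

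The response at 72 h minus that at 24 h was tested directly. It was called higher for 4 of the 84 genes (4.76%, beside 2.86% of all genes) and lower for none (beside 3.44%). Among these were Rpl35 (0.65 ± 0.15 on the log2 scale, edgeR adjusted p = 0.00974), Rpl13a (0.34 ± 0.10, edgeR adjusted p = 0.0348) and Rplp0 (0.28 ± 0.08, edgeR adjusted p = 0.0473), with SE. Rpl13a is a large-subunit protein that in humans also silences inflammatory mRNAs. At an unadjusted p under 0.05 there were 19 genes higher and 1 lower, and DESeq2 called 7 higher and none lower. With the replicate number as a block 9 were higher. For 71 of the 84 genes the 72 h estimate was above the 24 h estimate.

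The libraries of Rpl13a show this difference. At 72 h it had 71.9, 70.3, 73.4 and 73.5 CPM in injured and 60.2, 63.0, 57.2 and 61.5 CPM in naive libraries, without overlap. Its 24 h libraries had 55.6, 60.8, 67.2 and 61.3 CPM when injured and 66.9, 70.8, 65.7 and 56.3 CPM when naive. The 72 h injured libraries of Rpl13a were above all other libraries except naive 24 h replicate 2.

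Set against the same condition at 24 h, naive ganglia at 72 h had no gene of the 84 past the threshold by edgeR (beside 1.61% of all genes higher and 0.731% lower). At an unadjusted p under 0.05 there were 13 genes lower and none higher, DESeq2 called 2 lower, and 71 of 84 estimates were below 0, with a median of -0.09. In 4 genes every naive library at 72 h was below every one at 24 h, and in none above (4.76%, beside 4.84% of all genes below and 5.67% above). Injured ganglia at 72 h had 5 of the 84 higher than at 24 h (5.95%, beside 7.82% of all genes) and none lower (beside 7.85%), with a median of 0.06. At an unadjusted p under 0.05, 2 were lower, and DESeq2 called none lower. The 5 genes called higher were Rpl35 (0.46), Rpl15 (0.31), Rps2 (0.25), Rpl13a (0.24) and Rps3 (0.20), as log2 fold changes. Both comparisons share their libraries with the injury comparisons, and a time point here was also a separate set of mice, per the series text, so time and set cannot be told apart.

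How firmly the calls stand differed between the times. At 72 h, 19 of the 34 genes were called under every alternative planned and without any 1 library (among them Rpl7a, Rpl13a, Rpl15, Rpl21, Rpl24, Rpl35, Rpl41, Rplp0, Rps2, Rps3, Rps4x, Rps7, Rps15a, Rps19, Rps24, Rps26, Rps27a and Rps27l). The count of 34 became 20 without naive 72 h replicate 2 and 22 without naive 72 h replicate 3, which had the lowest shares of ribosomal protein counts. At 24 h none of the 6 calls stood without every library in turn. The 6 became 3 without injured replicate 1, injured replicate 3, naive replicate 1 or naive replicate 3, 2 without injured replicate 4 and 1 without naive replicate 2. Of the 4 calls for the difference of responses, Rpl35 was called in all 16 fits that leave out 1 library, Rpl13a in 4 and Rplp0 in 3.

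Levels per kb of exon among the 84 genes spanned a wide range in naive ganglia, with a high of 197 CPM per kb for Rpl4, then 179 for Rps3a1 and 176 for Rplp1. Rpl4 averaged 197 ± 5.37 CPM per kb and Rps3a1 179 ± 9.15 (SD, n = 8 naive libraries), with partly overlapping ranges of 189 to 207 and 167 to 195. Rps3a1 and Rplp1, at 176 ± 29.5 CPM per kb (SD, n = 8), did not differ beyond their spread. The lowest were Rpl3l at 0.124 ± 0.108, Rps13 at 0.293 ± 0.167 and Rpl12 at 1.22 ± 0.184 CPM per kb (SD, n = 8), of which Rpl3l and Rps13 overlapped. The exon length used joins all annotated isoforms of a gene, and copies share reads, so these levels are not those of single mRNAs. Rpl4, the gene with the highest level, had 418, 433, 428 and 416 CPM in injured and 391, 399, 389 and 392 CPM in naive libraries at 72 h, without overlap. Its log2 fold change of 0.11 ± 0.04 did not pass (SE, edgeR adjusted p = 0.0608; 0.0468 with the replicate number as a block).

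Shared sequence matters for this family, because processed pseudogenes, copies of the mRNA put back into the genome, are many. For 59 of the 84 genes the count table holds pseudogenes named after them with -ps in the symbol, 268 in all. These held 1056102 counts beside 2287478 counts for the 59 genes. The pseudogenes of Rps23 held 62122 counts against 1382 for the gene, those of Rpl38 30260 against 914, those of Rpl19 116095 against 13186 and those of Rpl3 165609 against 41855. For these genes most counts under the name therefore lay on a pseudogene. Of the 84 genes, 35 had at least 80% unique 50-base stretches, and 13 of those rose at 72 h, as did 21 of the 49 with less. Of the 48 genes with a mean of at least 20 CPM 23 rose, and of the 36 with less 11 rose.

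**Figure D4:**
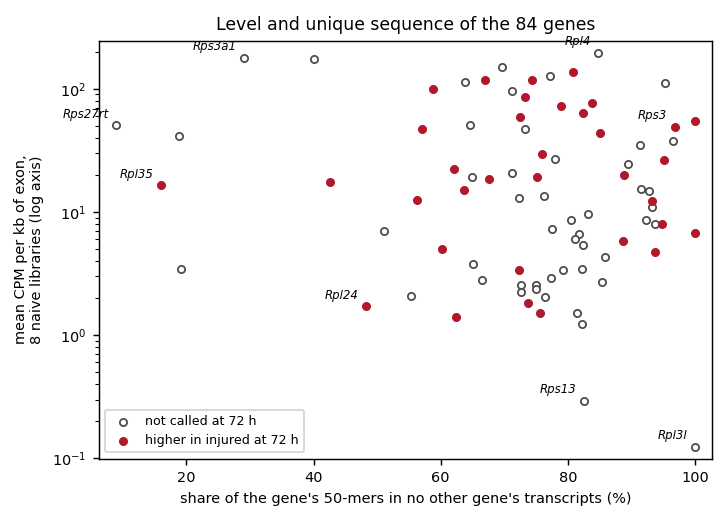
Mean CPM per kb of exon over the 8 naive libraries (log axis) against the share of a gene's 50-base stretches that occur in no other annotated gene's transcripts, for the 84 genes. Genes called higher at 72 h (filled) lie at all levels and all shares, from Rpl35 at 15.95% to Rps3 at 96.8%; the Spearman correlation of the measures plotted was -0.08 over 84 genes.

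When the counts of each pseudogene with -ps in its symbol were added to the gene it is named after, 30 of the 84 genes rose at 72 h and 1 fell. Pseudogenes with other symbols were not joined, such as Rpl37rt with 44190 counts and Rpl6l with 38070, so the join is partial. Of the 34 genes called without joining, 29 stayed called. The 5 lost included Rpl19 (log2 fold change 0.04, edgeR adjusted p = 0.78), Rps23 (0.09, edgeR adjusted p = 0.335), Rpl23 (0.22, edgeR adjusted p = 0.051) and Rps25 (0.18, edgeR adjusted p = 0.0696). Rps23 on its own had 3.04, 2.73, 2.81 and 1.79 CPM in injured and 2.12, 1.39, 1.42 and 1.67 CPM in naive libraries at 72 h, which overlap, with a log2 fold change of 0.65 ± 0.23 (SE, edgeR adjusted p = 0.0415; 0.0591 with the replicate number as a block).

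The gene that fell when joined was Rpl3 (log2 fold change -0.17 ± 0.04, SE, edgeR adjusted p = 0.0042), and Rpl38 was called higher (0.25 ± 0.08, SE, edgeR adjusted p = 0.0233). The pseudogene Rpl3-ps1 had 205 ± 4.49 CPM in injured and 232 ± 10.6 CPM in naive ganglia at 72 h, and 217 ± 10.4 CPM in injured and 242 ± 5.50 CPM in naive ganglia at 24 h (SD, n = 4 each). It fell at both times, by 0.18 at 72 h (edgeR adjusted p = 0.00515) and by 0.16 at 24 h (edgeR adjusted p = 0.0184) on the log2 scale. Rps15a-ps7, by contrast, had at 72 h between 40.0 and 44.8 CPM in injured and between 27.3 and 30.5 CPM in naive libraries (log2 fold change 0.54, edgeR adjusted p = 3.07e-05). Of all 120 ribosomal protein pseudogenes tested singly, 7 rose and 1 fell at 72 h, with a median log2 fold change of 0.23. At 24 h, joined counts gave 5 genes that rose; Rps6 was no longer among them, nor was Rpl7l1 (0.17, edgeR adjusted p = 0.0514), and Rps16 was (0.35, edgeR adjusted p = 0.0378).

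Other genes of protein synthesis were set beside the 84. The mitochondrial ribosome has its own proteins, encoded in the nucleus, and of 78 such genes 4 rose and 2 fell at 72 h, with a median log2 fold change of 0.02, while 1 rose and 6 fell at 24 h. The shares at 72 h were 5.13% higher and 2.56% lower, beside 14.4% and 13.5% of all tested genes. At 24 h they were 1.28% higher and 7.69% lower, beside 10.7% and 8.31% of all tested genes. Of 22 translation factors and other mRNAs known to carry a TOP tract, 8 rose (36.4%) and 1 fell (4.55%) at 72 h. At 24 h 5 of them rose (22.7%) and none fell. Eef1b2, a subunit of the exchange factor that reloads the elongation factor Eef1a1, rose by 0.39 ± 0.06 at 24 h (SE, edgeR adjusted p = 6.99e-05) and 0.93 ± 0.06 at 72 h (edgeR adjusted p = 7.86e-11). The other subunits Eef1d (0.31) and Eef1g (0.27) and Eef1a1 itself (0.21) rose at 72 h, and Eif3f, a subunit of an initiation factor, fell by 0.20. Pabpc1, the poly(A)-binding protein, rose at 24 h (0.53, edgeR adjusted p = 3.57e-05) and did not pass at 72 h (0.15, edgeR adjusted p = 0.17).

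**Figure D5:**
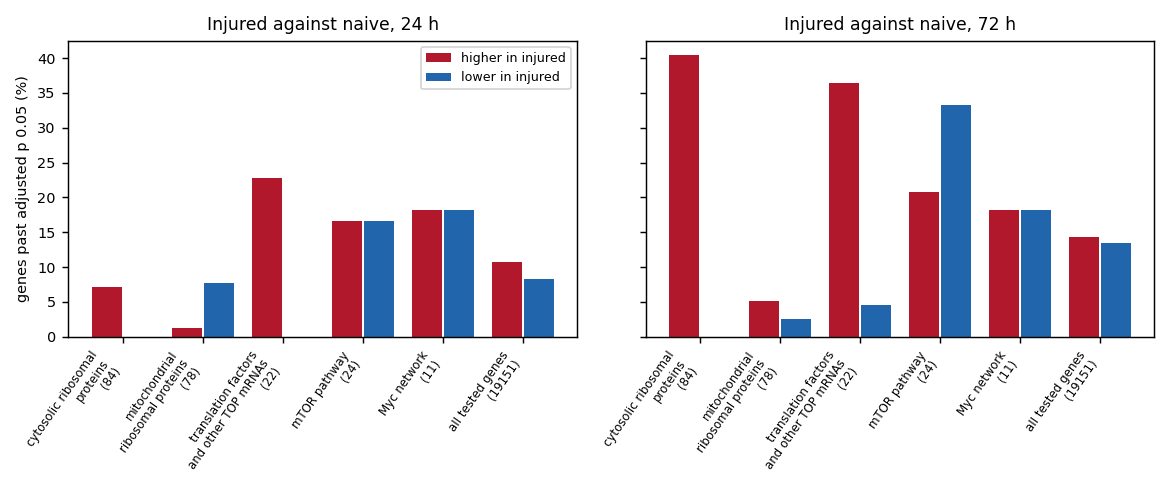
Percent of the tested genes of each list past an edgeR adjusted p of 0.05, higher (red) or lower (blue) in injured ganglia, at 24 h and 72 h, with the number tested in brackets. At 72 h the red bar is 40.5% for the 84 genes and 14.4% for all tested genes, and no blue bar is drawn for the 84 genes at either time.

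Of 24 genes of the mTOR pathway, 5 rose (20.8%) and 8 fell (33.3%) at 72 h, beside 14.4% and 13.5% of all tested genes. At 24 h 4 rose and 4 fell (16.7% each), beside 10.7% and 8.31% of all tested genes. Eif4ebp1, which holds back the cap-binding protein Eif4e until mTOR phosphorylates it, rose by 1.13 ± 0.17 at 24 h (SE, edgeR adjusted p = 2.93e-05) and 1.64 ± 0.17 at 72 h (edgeR adjusted p = 7.46e-08). Eif4e itself rose by 0.62 and 0.59 at these times, and Sesn2, a stress-induced inhibitor of mTOR complex 1, by 1.10 and 1.16. Its relatives on the list went the other way: Sesn1 fell by 0.56 and 0.45, and Sesn3 by 0.27 at 72 h. Ddit4 fell by 0.35 at 24 h and 0.42 at 72 h, and Deptor rose by 0.31 at 24 h and fell by 0.40 at 72 h. Pdcd4, an inhibitor of translation initiation, fell by 0.47 at 24 h and by 0.61 at 72 h. At 72 h Rptor fell by 0.21, Tsc1 by 0.32 and Tsc2 by 0.22, while Eef2k rose by 0.27 and Rps6kb2 by 0.32. None of these passed at 24 h. Larp1 and Mtor did not pass at either time. In the Myc network, whose founding member drives ribosome synthesis genes, 2 of 11 rose and 2 fell at each time (18.2% each). Myc rose by 0.70 ± 0.10 at 24 h and 0.55 ± 0.10 at 72 h (SE, edgeR adjusted p = 9.09e-06 and 8.6e-05), and Mxd4, a Myc antagonist, fell by 0.43 and 0.44.

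Within groups, the more abundant of the 84 genes varied together from library to library. Over the 48 with at least 20 CPM, the median pairwise correlation of log2 CPM after removing group means was 0.26 across 16 libraries, against 0.01 among all 7473 tested genes at that level and 0.18 among 53 mitochondrial ribosomal protein genes. The points share library, depth and composition, so the values are a description. Neither level nor length went with the size of the 72 h response, with Spearman correlations over the 84 genes of -0.13 for mean CPM and 0.07 for exon length. The standard error of the response was lower in genes with more counts (Spearman correlation -0.92), so that small rises passed the test in abundant genes, such as Rpl7 at 0.17 ± 0.05, while larger estimates in scarce genes did not, such as Rps13 at 0.47 ± 0.49 (log2 fold change, SE).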

How the data were processed

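RNA of 16 libraries was compared in 4 groups of 4. The authors deposited whole read counts per gene, not normalized. Per the submitters' processing notes the tools were bcl2fastq 2.17, STAR and HTSeq, with GRCm38 and mm10. The strand setting, read length, annotation release and rule for reads with several positions are not given in the sources used here. Column names give no time for the 72 h libraries, which were placed by elimination. The deposited table of genomic windows was not used.

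Gene symbols were matched to 48349 of 48795 IDs. The counts went into edgeR 4.0.16 (R 4.3.3) with TMM and with filterByExpr set by group, at a minimum count of 10 and a minimum total of 15. One fit by quasi-likelihood had a term for group over the 16 libraries, and p-values were adjusted by Benjamini-Hochberg across 19151 genes. CPM use the TMM-scaled library size. Scripts were tested on simulated data. The smallest chi-square per degree of freedom between libraries of a group was 9.79, so none was a duplicate. The labels do not say that libraries of a group are separate animals, so p-values measure the spread between libraries. Unique 50-base stretches and exon lengths are from GENCODE M21 (GRCm38); sequence outside annotated transcripts was not searched. Start sequences are from RefSeq (GRCm38.p6).

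Same-numbered injured and naive libraries deviated together at 72 h (correlations of 0.25, 0.21, 0.11 and 0.21 over 12020 genes, each above 0.1). At 24 h they were 0.32, 0.097, 0.11 and 0.13. The replicate number was therefore used as a block in an alternative. Pairs with different numbers ran from -0.31 to 0.12 at 72 h and from -0.20 to 0.105 at 24 h. The highest, injured replicate 3 with naive replicate 4, was above the lowest same-numbered pair at each time. A correlation above 0.1 therefore does not by itself mark a shared number.

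Alternatives were DESeq2 1.42.0, RLE factors, TMM without the 84 genes, no TMM, no filter, only the groups compared, a replicate block, each library left out, and joined pseudogene counts. Genes were named by rule: the 8 largest rises and falls past the threshold at each time, up to 4 genes of each sign for the difference of responses, the 2 smallest p of each list at each time, paralogs and their partners, Rps19bp1, and the 3 highest and lowest levels. Other genes named, such as Rps16, Rps25, Rpl10a, Rpl23, Rpl38, Pdcd4 and Sesn1, were chosen after their values were seen. Some genes that meet the rule are not reported here by name, and they remain in all counts. The genes and lists were chosen with earlier results of these data known.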

Additional observations from a re-analysis of the deposited data

Results flagged for a closer look

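The response of 3 named genes differed between the times, by the test of the difference itself (72 h minus 24 h, log2 scale): Rpl35 by 0.65, Rpl13a by 0.34 and Rplp0 by 0.28.

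In 144 groups of 4 libraries (36 named genes in 4 groups), 1 library stood far from the other 3 in 4 groups, where chance alone flags about 1 group in 20. Rpl19 had 18.4 CPM in injured 72 h replicate 4 and 20.8 to 21.0 CPM in the other injured libraries of that time. Rps7 had 9.58 CPM in injured 24 h replicate 4 and 7.33 to 7.70 CPM in the others. Rpl3 had 52.2 CPM in naive 24 h replicate 2 and 61.2 to 62.0 CPM in the others. Rplp0 had 223.0 CPM in naive 24 h replicate 2 and 200.2 to 203.1 CPM in the others, a library that thus gave 2 of these 4 values.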

How the results depend on the processing

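Of 84 genes, those called higher at 24 h numbered 6 in the test reported, 3 with library totals in place of TMM, 3 without a filter, 0 with only the groups compared and 8 with the replicate block (1 to 7 with 1 library left out, and 0 to 1 called lower). At 72 h they numbered 34, and 25 to 38 under the other planned settings (20 to 32 with 1 library left out), with none lower except 1 with joined pseudogene counts. For the difference of responses 4 became 7 with DESeq2, 7 without a filter and 9 with the replicate block (1 to 7 with 1 library left out). That count moved by more than 1.5 times without injured 24 h replicates 1 (1), 2 (1), 3 (2) or 4 (7), injured 72 h replicates 1 (1), 2 (2) or 3 (1), naive 24 h replicates 1 (2), 3 (1) or 4 (2), and naive 72 h replicates 2 (2) or 3 (1). Naive ganglia at 72 h against 24 h gave none lower, but 2 with DESeq2, 2 without a filter, 1 with only the groups compared and 1 with the replicate block. Injured ganglia at 72 h against 24 h gave 2 to 6 higher and 0 to 1 lower with 1 library left out, the lowest values being 2 (injured 24 h replicate 2 out) and 3 (injured 72 h replicate 4 out), and 1 lower with joined counts. The difference in the share of counts (injured minus naive, percentage points) ran from -0.00877 to 0.00957 at 24 h and from 0.0533 to 0.0658 at 72 h with 1 library left out. The median log2 fold change ran from 0.01 to 0.09 at 24 h and from 0.18 to 0.24 at 72 h. The causes were not tested. With DESeq2, RLE factors and TMM without the 84 genes, all 27 single-gene results kept their call. They lost it in 6 cases without TMM, 8 without a filter, 6 with only the groups compared, 1 with the replicate block and 4 with joined counts, none with a changed sign. Beside Rps23, the replicate block changed the 72 h calls of Rpl31 (lost) and of Rpl4, Rpl5 and Rpl8 (gained), among others. Few counts limit scarce genes such as Rps13 and Rpl24, and shared sequence limits single genes of any level.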
